A study of Mus musculus with 37 samples.

Results

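The cells described here are the 261 of 8641 mouse fibroblast-derived cells in which the CPM (a gene's counts over the cell's total counts, times 1000000) of the genes Tac2, Nnat and Fxyd6 summed highest. In each of the 37 deposited files the 3% of cells with the highest sum were taken, which gave 2 to 17 cells per file with a median of 7. These cells are called members below, and each was set against 3 other cells of its own library with the nearest total counts, 783 matched cells in all. The members held a median of 10119 counts per cell, the matched cells a median of 10096 and all other cells a median of 8491. The label under which these cells were proposed, a fibroblast state with Tac2 and Nnat, was borne out only in part by the counts: Fxyd6 was detected in 252 members (96.6%), Nnat in 164 (62.8%) and Tac2 in 58 (22.2%). Fxyd6 had the most counts of the 3 genes in 194 members, Nnat in 56 and Tac2 in 10, with a tie in 1. Of the fibroblast part of the label, Sparc, a secreted matrix protein, was detected in 261 of 261 members and in 783 of 783 matched cells, and Col1a1, which encodes a chain of collagen I, in 97.3% of members and 99.5% of matched cells. Both belong to a list of 25 fibroblast genes of which 5 were higher in members and 9 lower, Postn, Prrx1 and Pdgfra among the lower ones, with a median log2 fold change of -0.15. These are 20.0 and 36.0% of the list, beside 9.24 and 8.35% of all genes tested.

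The cells were embryonic fibroblasts of the ICR mouse background, taken 7 days after infection with retroviral vectors that delivered 48 factors together, in a study of conversion of fibroblasts toward heart cells. All samples received the same factors and none was left without them. Each member and its matched cells come from the same library. Single cells were measured by Drop-seq, which captures polyadenylated RNA on barcoded beads in droplets. The samples are technical replicates of 1 biological replicate, so every p-value measures the spread between libraries of 1 culture and not between cultures.

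Tac2 encodes the precursor of neurokinin B, a tachykinin peptide known mainly from neurons of the hypothalamus, where it acts on the receptor encoded by Tacr3. Nnat encodes neuronatin, a small protein of the endoplasmic reticulum membrane that acts on calcium uptake by the SERCA pump. It is an imprinted gene, transcribed from the paternal copy alone, and lies inside an intron of Blcap. Fxyd6 encodes a short membrane protein of the FXYD family, whose members bind the sodium-potassium pump and tune its transport. None of the 3 genes is a usual marker of fibroblasts.

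In the GRCm38 build Tac2 lies on chromosome 10 at 127724478 to 127731768, Nnat on chromosome 2 at 157560078 to 157562522 and Fxyd6 on chromosome 9 at 45370185 to 45396159, all on the plus strand. The 250 bases before each start are shown because each of the 3 genes was higher in cells chosen on the other pair, as given below, and the pool included several proteins of the basic helix-loop-helix class, such as Hand2, which bind E-box motifs. Capitals mark the E-box letters CANNTG, which read the same on both strands. The sequences are those of RefSeq for GRCm38.p6, at chr10:127724228-127724477, chr2:157559828-157560077 and chr9:45369935-45370184.
Tac2: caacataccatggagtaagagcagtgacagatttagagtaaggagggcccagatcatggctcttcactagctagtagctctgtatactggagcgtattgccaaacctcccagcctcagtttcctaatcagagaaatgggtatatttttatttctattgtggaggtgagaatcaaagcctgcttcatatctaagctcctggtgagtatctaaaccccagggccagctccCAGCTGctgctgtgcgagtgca
Nnat: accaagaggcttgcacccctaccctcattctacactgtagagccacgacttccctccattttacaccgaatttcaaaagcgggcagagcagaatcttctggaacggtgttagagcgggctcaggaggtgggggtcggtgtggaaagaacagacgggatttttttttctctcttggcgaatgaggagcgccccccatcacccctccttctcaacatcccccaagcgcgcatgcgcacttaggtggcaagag
Fxyd6: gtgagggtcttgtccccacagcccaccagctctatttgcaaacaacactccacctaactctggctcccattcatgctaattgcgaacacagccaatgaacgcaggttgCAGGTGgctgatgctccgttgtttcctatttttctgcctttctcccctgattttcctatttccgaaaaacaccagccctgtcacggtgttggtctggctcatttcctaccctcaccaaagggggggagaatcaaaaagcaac
The Tac2 and Fxyd6 windows held 1 E-box each and the Nnat window held 0. Of 32851 promoter windows of the same length, 66.2% held at least 1 CANNTG, so its presence does not set these genes apart. The narrower pattern CATCTG, read on both strands and contained in CANNTG, was in 0 of the 3 windows and in 14.4% of all windows. The Nnat window held 12 CG pairs and 54.8% G and C, the Fxyd6 window 5 pairs and 50.4%, and the Tac2 window 2 pairs and 47.2%, beside medians of 6 pairs and 52.4% over all windows.

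The files held 120363659 counts in the 8641 cells kept, with a median of 8513 counts and 3556 detected genes per cell and 637680 to 7973580 counts per library. Technical replicates 4 and 6 shared 59 cell barcodes and were treated as 1 library, which gave 36 libraries; the next closest pair shared 4. From the beginnings of the library names in the descriptions, the libraries were grouped here into 3 series, JD (15 libraries, 100 members), PZ47-PZ48 (15 libraries, 115 members) and PZ58 (6 libraries, 46 members). Of 27999 gene rows, 27645 matched a named gene, and a reporter row held 0 counts. The 5 microRNAs of the pool have no row, and 43 factors do.

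The choice of members used the CPM of the 3 genes, so these values are a description and not a finding. Over the 35 libraries with at least 3 members, the summed level of Fxyd6 had a lowest, median and highest value of 564, 1293 and 2698 CPM in members, against 0, 71.6 and 231 CPM in matched cells. Nnat ran from 43.6 through 547 to 1989 CPM in members, against 0, 24.4 and 99.3 CPM in matched cells. Tac2 ran from 0 through 79.4 to 624 CPM in members, against 0, 0 and 95.6 CPM in matched cells. Members and matched cells did not overlap between libraries for Fxyd6, whereas they overlapped for Nnat and for Tac2, which was at 0 in the members of 8 libraries. The median summed CPM of a member was 1772 and rested on a median of 21 counts of the 3 genes, with a range of 2 to 459. The last cell inside the limit had a median of 1284 CPM over files (551 to 2493), and the first cell outside had a median of 1117 CPM (526 to 2354), so the limit differed between files by more than the gap across it. Of all cells, 55.6% had none of the 3 genes.

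How far the 3 genes go together was asked by choosing the cells on 2 of them and testing the third, which then chose none of the cells. The 3 genes had themselves been put together with earlier results of these data known. The tests below are therefore no independent evidence that they go together, and their values describe how far the third gene rose. In the 259 cells of 35 libraries chosen on Nnat and Fxyd6, Tac2 had a lowest, median and highest library level of 0, 33.8 and 360 CPM, against 0, 0 and 127 CPM in their matched cells. Its log2 fold change was 3.64 ± 0.40 (SE; edgeR quasi-likelihood test with Benjamini-Hochberg adjustment, adjusted p = 1.56e-10), with a higher level in 24 libraries and a lower one in 5. Tac2 was thus higher in cells chosen without it, though the ranges overlapped and 11 libraries held no count of it in the chosen cells. Nnat, tested in cells chosen on Tac2 and Fxyd6, ran from 0 through 224 to 1684 CPM, against 0, 29.0 and 175 CPM in matched cells (log2 fold change 2.97 ± 0.34, adjusted p = 8.76e-10, higher in 28 of 35 libraries). Fxyd6, tested in cells chosen on Tac2 and Nnat, ran from 131 through 602 to 2642 CPM, against 6.57, 120 and 562 CPM in matched cells (log2 fold change 2.30 ± 0.26, adjusted p = 1.85e-09, higher in 32 of 35 libraries). Each of the 3 genes, picked together from these data, rose with the other pair, and Fxyd6 did so in the most libraries. In these comparisons, 8.84% of genes were higher and 8.25% lower in cells chosen on Nnat and Fxyd6, 9.62 and 9.56% in cells chosen on Tac2 and Fxyd6, and 4.84 and 3.96% in cells chosen on Tac2 and Nnat. Ranked by p among all genes tested, Fxyd6 stood at place 21, Tac2 at 52 and Nnat at 58. Within the PZ58 libraries alone Tac2 had a log2 fold change of 1.93 that did not pass the test (adjusted p = 0.440), while Nnat (2.93, adjusted p = 0.00123) and Fxyd6 (2.23, adjusted p = 6.15e-05) did.

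Across all genes, counts were summed per library over the members and over the matched cells, without the 3 genes of the rule, and compared with the library as a block in 35 libraries (259 members). Of 13823 genes with at least 20 counts, 1277 were higher in members (9.24%) and 1154 were lower (8.35%) at an adjusted p under 0.05. With scaling factors from the sums as they are, in place of factors from sums thinned to equal depth, 900 genes were higher (6.51%) and 1998 were lower (14.5%); that scaling moved the median log2 fold change of all genes to -0.12, against -0.02 here. With DESeq2 size factors, 831 were higher and 2299 lower. The near balance of higher and lower genes thus held with the thinned factors and not with these 2 scalings. Individual genes below are given with the thinned factors.

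The transcription factor Hand2, a basic helix-loop-helix protein of the developing heart, limb and branchial arches and a member of the delivered pool, had the smallest adjusted p of the named genes. Its library level ran from 18.4 through 125 to 410 CPM in members, against 0, 9.23 and 43.8 CPM in matched cells. The level was higher in members in 35 of 35 libraries, although the ranges over libraries overlapped, and the log2 fold change was 3.55 ± 0.19 (adjusted p = 2.84e-23). Hand2 was detected in 125 members (47.9%, exact 95% interval 41.7 to 54.1%) and in 73 matched cells (9.32%, 7.38 to 11.6%). Among non-member cells with markers of other types, Hand2 was detected in 14.6% of 96 glial cells (8.21 to 23.3%) at a median of 6937.5 counts. It was detected in 13.6% of cells with skeletal muscle markers and 43.2% of those with mesothelial markers. All cells were exposed to the delivered factors, so these shares give no background level. How much of the detection was RNA from other cells was not tested. The gene spans 57320983 to 57324633 of chromosome 8 and shares exons with Hand2os1; whether counting used strand is not given in the sources used here, so their counts may not be separate.

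Several matrix and adhesion genes were among the 12 genes with the highest fold change and the same sign in all 3 series. Comp, the cartilage oligomeric matrix protein, ran from 0 through 18.9 to 386 CPM in members, against 0, 0 and 29.1 CPM in matched cells (log2 fold change 4.20 ± 0.40, adjusted p = 9.24e-12). It was higher in 21 libraries and lower in 6, and was detected in 33 members (12.6%) and in 17 matched cells. Thbs4, a thrombospondin of the same family as Comp, had 0, 12.8 and 443 CPM in members, against 0, 0 and 42.3 CPM in matched cells (3.15 ± 0.38, adjusted p = 2.92e-09). Thbs4 was detected in 14.2% of members, so both genes were found in a minority of them, with ranges that overlapped between members and matched cells. Col13a1, a collagen anchored in the cell membrane, had a log2 fold change of 3.22 ± 0.43, and Cadm3, an adhesion molecule of the immunoglobulin class, one of 3.03 ± 0.26. Megf6, a protein with repeated EGF-like domains, rose by 3.03 ± 0.26, and Zfp185, an actin-associated LIM protein, by 3.32 ± 0.32. The adaptor Sla (2.97 ± 0.38) and the unnamed gene Gm13889 (3.40 ± 0.32) also belonged to this group. The highest fold change, that of the endogenous retroviral gene Erv3 (5.01 ± 0.64), rested on 397 counts of which 63.2% came from 1 cell, and Erv3 was at 0 in the members of 23 libraries. The last of the 12 is Gm44732 (3.17 ± 0.25), which shares exons with the imprinted gene Cdkn1c (2.98 ± 0.24) described below, so that their counts may not be separate.

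**Figure D1:**
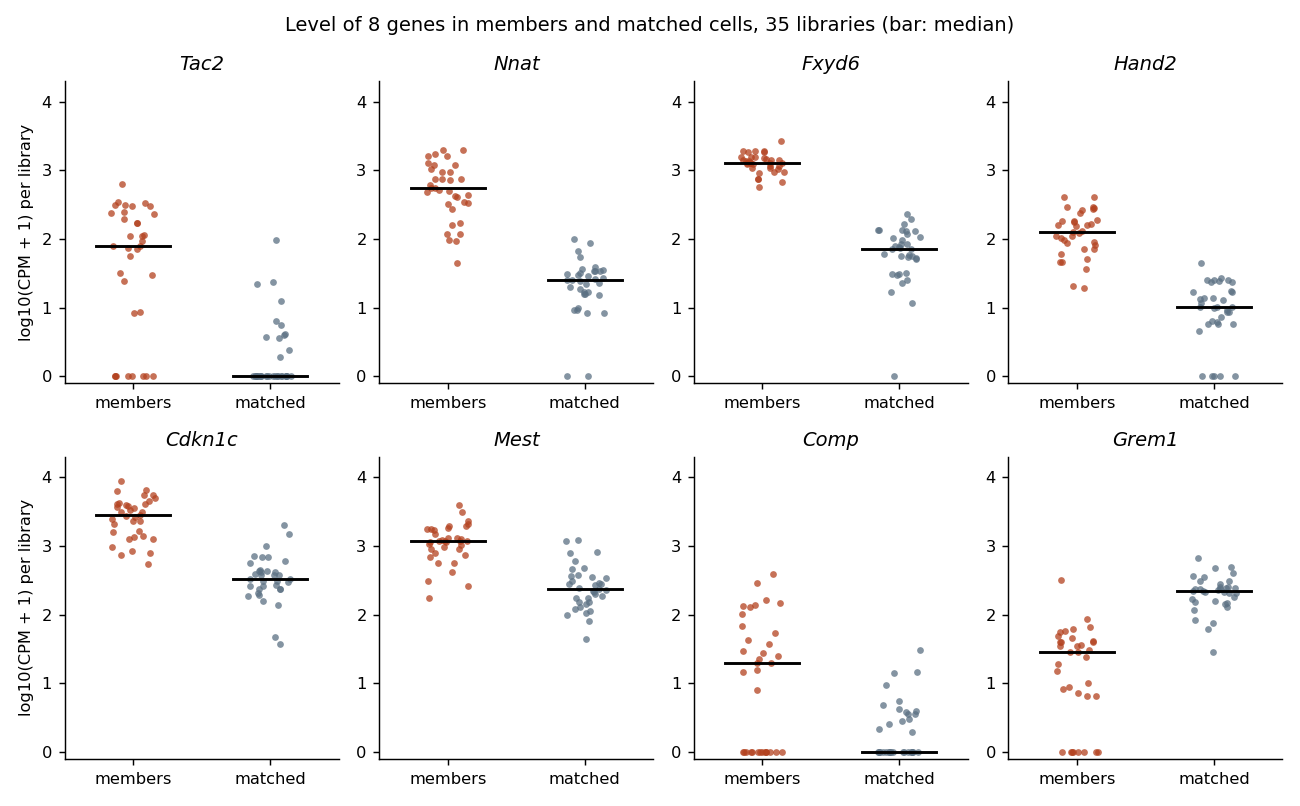
Library levels of 8 genes as log10(CPM + 1), with members at left and matched cells at right; each point is 1 of 35 libraries and the bar is the median. Tac2, Nnat and Fxyd6 chose the members, while Hand2 has a median of 125 CPM in members and 9.23 in matched cells, and Grem1 runs the other way with 27.3 and 223 CPM.

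The 12 genes with the lowest fold change included several secreted proteins. Grem1, which encodes the BMP antagonist gremlin 1, ran from 0 through 27.3 to 318 CPM in members, against 28.0, 223 and 671 CPM in matched cells. It was lower in members in 34 of 35 libraries with overlapping ranges (log2 fold change -2.89 ± 0.21, adjusted p = 1.97e-17), and was detected in 19.9% of members and 48.9% of matched cells. Il1rl1, the receptor for interleukin 33, ran from 0 through 0 to 21.8 CPM in members, against 2.81, 28.3 and 98.8 CPM in matched cells (-3.32 ± 0.33, adjusted p = 6.67e-12). It too was lower in 34 of 35 libraries, and 26 libraries held no count of it in members. Ptx3, a secreted pentraxin of innate immunity (-2.55 ± 0.29), Ccn3, a matricellular protein (-2.48 ± 0.32), Has2, which makes hyaluronan (-2.37 ± 0.36), and Prkg2, a kinase driven by cyclic GMP (-2.41 ± 0.34), fell as well, and so did the unnamed gene Gm2115 (-2.74 ± 0.23). The neuropeptide gene Vip had 1 count in members and 374 in matched cells, which after division by total counts is a ratio of matched cells to members of 126 (interval from counting 22.4 to 4981), and 51.1% of the matched counts came from 1 library. Gjb2, which encodes connexin 26, had 2 counts in members and 195 in matched cells, a ratio of 32.8 (8.96 to 273). Lhx9, a homeobox factor of limb bud and gonad (-2.84 ± 0.46), Sfrp2, a secreted Wnt modulator (-2.73 ± 0.61), and Nqo1, a quinone reductase (-2.34 ± 0.33), were lower too; among cells with no Hand2 count, their adjusted p-values were 0.149, 0.493 and 0.102.

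Genes of the known partners of the 3 proteins were tested as lists. Of 6 tested genes of the FXYD family and the sodium-potassium pump, 2 were higher (33.3%) and 1 lower (16.7%), beside 9.24 and 8.35% of all genes, among them Atp1b3, a beta subunit (0.58 ± 0.09), and Fxyd5 (-0.66 ± 0.18). The library median of Atp1b3 was 290 CPM in members and 194 CPM in matched cells, and it was higher in members in 29 of 35 libraries. With scaling factors from the sums as they are, 1 gene of this list was higher and 1 lower. No tachykinin receptor reached 20 counts, so the receptor side of Tac2 could not be tested. Of 10 tested neuropeptide and granule genes, Cpe, a carboxypeptidase that trims peptide precursors, was higher (0.53 ± 0.10, adjusted p = 0.000111), with medians of 705 CPM in members and 507 CPM in matched cells, and Vip was lower. These are 10.0% of the list each way, near the 9.24 and 8.35% of all genes, so the list as a whole did not stand out. Among 13 calcium store genes, which include the SERCA pumps on which neuronatin acts, Itpr2, an inositol trisphosphate receptor, was lower (-0.86 ± 0.23) and none was higher. That is 7.69% of the list lower, near the 8.35% of all genes. Blcap, the host gene of Nnat, was higher by 0.55 ± 0.11 on the log2 scale (adjusted p = 7.43e-05), and reads of the 2 overlapping genes may not be separate where they share exons.

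Imprinted genes, most of which are known for roles in fetal growth, were higher in members as a group. The list, without Nnat, held 24 tested genes, of which 17 were higher (70.8%) and 0 lower, with a median log2 fold change of 0.53 beside -0.02 over all genes; a tested gene was higher in 9.24% of cases over the whole table. Their summed level had a lowest, median and highest library value of 9661, 22704 and 36794 CPM in members, against 7207, 11317 and 20654 CPM in matched cells, and was higher in members in 34 of 35 libraries. Cdkn1c, the inhibitor p57 of cyclin-dependent kinases and a maternally expressed gene, ran from 551 through 2789 to 8756 CPM in members, against 36.2, 335 and 1996 CPM in matched cells (adjusted p = 4.44e-14). Mest, a paternally expressed gene of mesoderm, ran from 173 through 1190 to 3909 CPM in members, against 42.6, 239 and 1231 CPM in matched cells (log2 fold change 2.23 ± 0.22, adjusted p = 2.63e-11). These 2 genes had the largest changes of the list, in 34 and 31 of 35 libraries, with overlapping ranges. Plagl1, a zinc finger factor that acts on other imprinted genes, had medians of 159 CPM in members and 68.9 CPM in matched cells (1.34 ± 0.18), and Dlk1, a Notch-related membrane protein, had medians of 399 and 200 CPM in the same order (1.09 ± 0.29). Among abundant members of the list the changes were smaller. The long noncoding RNA H19 had a median of 7406 CPM in members and 3400 CPM in matched cells (0.84 ± 0.14), and the growth factor Igf2 a median of 4157 CPM in members and 2330 CPM in matched cells (0.68 ± 0.11). Maternally expressed (Cdkn1c, H19, Meg3, Grb10, Igf2r) and paternally expressed genes (Mest, Plagl1, Igf2, Dlk1, Peg3) were both among those that rose. When cells with Hand2 were left out before members were chosen anew, 14 of 23 tested imprinted genes were higher and 0 lower, beside 5.45 and 4.62% of all genes. Without cycling cells, 11 of 23 were higher and 0 lower, beside 5.26 and 4.76% of all genes. Within the JD libraries alone 9 were higher and 0 lower, beside 3.37 and 3.31% of all genes.

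Genes of cell division ran the other way. Of 24 tested G2 and M phase genes, 21 were lower in members (87.5%) and 0 higher, with a median log2 fold change of -1.24, while 8.35% of all genes were lower. Summed over the list, the library level ran from 77.3 through 355 to 5056 CPM in members, against 447, 2111 and 5683 CPM in matched cells. The ranges overlapped, and the members' sum was the higher one in 7 of 35 libraries. Top2a, the topoisomerase of mitotic chromosomes, had medians of 28.6 CPM in members and 265 CPM in matched cells (-1.61 ± 0.28, adjusted p = 2.11e-05), and Hmgb2, a chromatin protein of dividing cells, 4.76 and 43.3 CPM (-1.79 ± 0.25, adjusted p = 6.36e-08). Of 20 S phase genes 16 were lower and 0 higher, with a median of -0.61; the helicase Hells had medians of 27.3 CPM in members and 61.8 CPM in matched cells (-1.01 ± 0.15). Cell by cell, 14.9% of members and 36.1% of matched cells held more than 1000 CPM of the G2 and M phase list and are called cycling here. With all such cells left out, which removes this difference by construction, 0 of 22 G2 and M phase genes were called, and 1 S phase gene was higher and 0 lower. Without the 5% deepest cells, 8 S phase genes were lower.

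**Figure D2:**
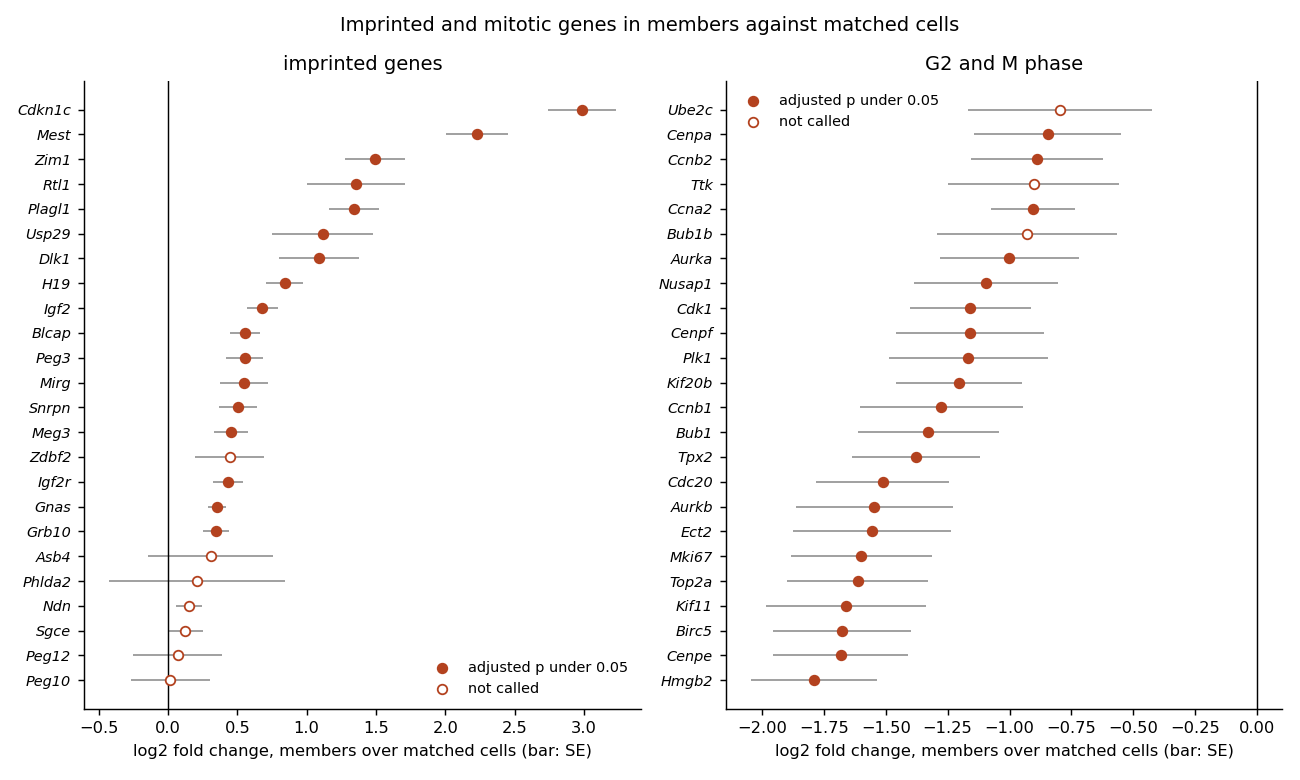
Log2 fold changes of members over matched cells with their SE, for 24 imprinted genes at left and 24 G2 and M phase genes at right. Filled points passed an adjusted p of 0.05: 17 imprinted genes lie to the right of 0, led by Cdkn1c and Mest, and 21 mitotic genes lie to the left.

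Signalling targets moved in both directions. The counts of each list stand beside 9.24% higher and 8.35% lower over all genes tested. For retinoic acid response the shares were 62.5% higher and 25.0% lower. Among 8 tested genes of retinoic acid response, 5 were higher, among them Tgm2, a transglutaminase (1.28 ± 0.19), Dhrs3, which reduces retinal (1.00 ± 0.16), the receptor gene Rarb (1.47 ± 0.40) and the retinoic acid hydroxylase gene Cyp26b1 (1.51 ± 0.34). The retinoic acid binding protein genes Crabp2 (-1.14 ± 0.21) and Crabp1 (-0.90 ± 0.26) were lower. Tgm2 had medians of 81.6 CPM in members and 31.7 CPM in matched cells and was higher in 26 of 35 libraries. Of 14 tested BMP and TGF-beta targets, 6 were lower (42.9%) and 2 higher (14.3%). Id3, an inhibitor of basic helix-loop-helix factors, ran from 38.5 through 294 to 943 CPM in members, against 273, 713 and 1216 CPM in matched cells (-1.14 ± 0.13, adjusted p = 1.29e-09). Id1, Id4, Ccn1 and Ccn2 were among the others that fell, while Bambi, a decoy receptor (1.45 ± 0.20), and Tgfbi (1.22 ± 0.22) rose. Thus 3 Id genes were lower while the BMP antagonist Grem1 was lower as well.

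Of 13 tested Wnt targets and antagonists, Nkd1, an inhibitor induced by Wnt signalling (1.91 ± 0.24), and Dkk3 (1.21 ± 0.20) were higher. Sfrp1, Sfrp2, Frzb and Dkk2, all secreted modulators, were lower. These are 15.4 and 30.8% of the list, beside 9.24 and 8.35% of all genes. In the Notch list of 6 tested genes Heyl rose (2.71 ± 0.38) and Hes1 fell (-0.33 ± 0.09), 16.7% of the list each. Lower genes without any higher ones were found among p53 targets (7 of 15 or 46.7%, led by Plk2 at -1.08 ± 0.14). So it was for immediate early genes (5 of 15 or 33.3%) and interferon response genes (4 of 16 or 25.0%). Without cells with Hand2, 1 p53 target was higher and 1 lower, beside 5.45 and 4.62% of all genes. Without cycling cells 1 was higher and 3 lower, beside 5.26 and 4.76%. The immediate early and interferon lists had 0 higher in both settings. Among 14 genes of the unfolded protein response 3 were higher (21.4%) and 2 lower (14.3%). With scaling factors from the sums as they are, 2 were higher and 7 lower, so the balance of this list turned with the scaling. Among 15 chemokines and cytokines 1 was higher (Il6, 1.52 ± 0.32) and 3 lower (Cxcl14, Ccl2 and Il1rl1), 6.67 and 20.0% of the list. With that scaling the counts were 1 and 6. Of 7 tested genes of the mitochondrial genome mt-Nd2 was lower (-0.25 ± 0.09). With scaling factors from the sums as they are 6 of the 7 were lower, and likewise 6 without cycling cells. The mitochondrial share of counts had a library median of 0.554% in members and 0.561% in matched cells.

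**Figure D3:**
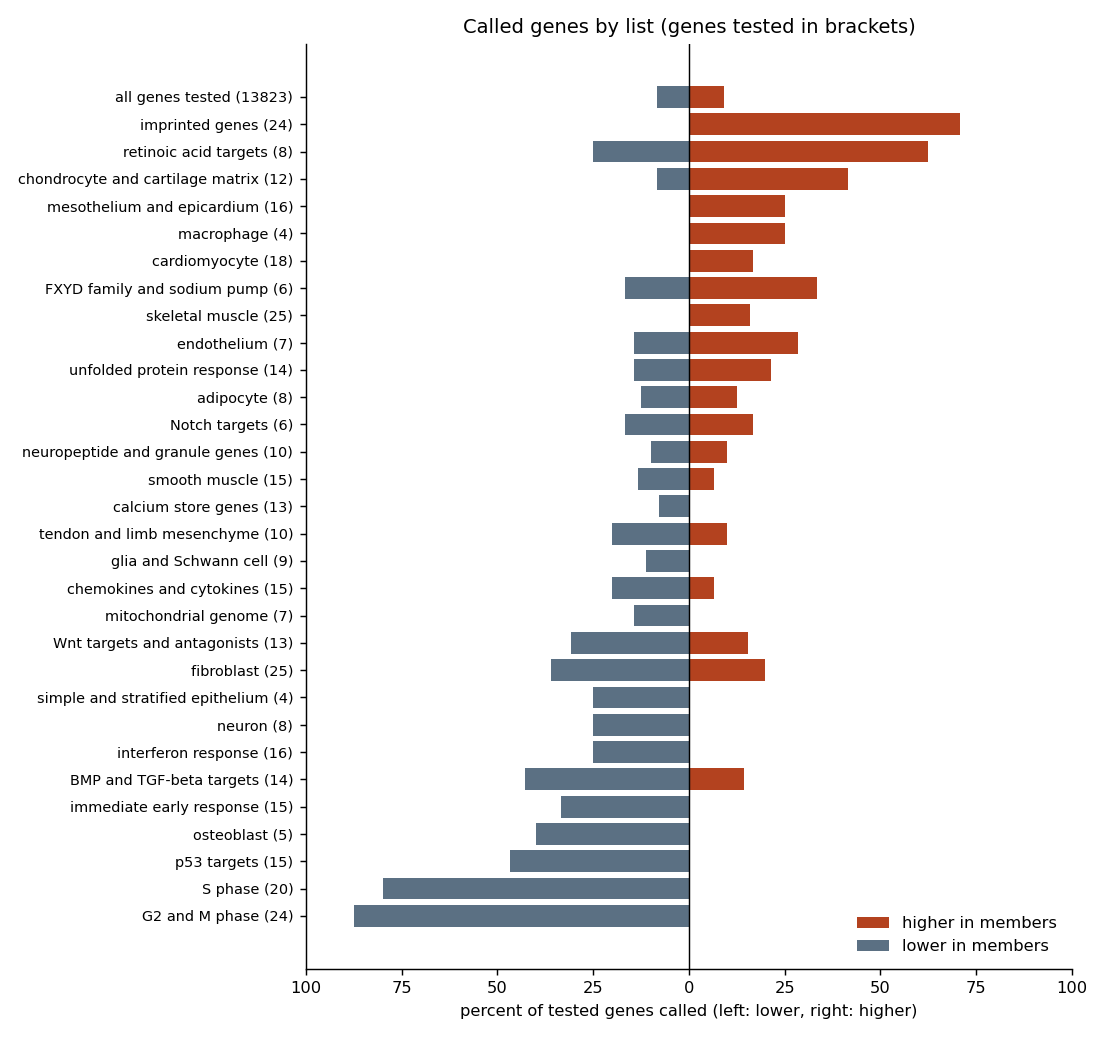
Share of tested genes of each list that were higher in members (bars to the right) or lower (bars to the left) at an adjusted p under 0.05, with the number of genes tested in brackets. The imprinted list reaches 70.8% to the right and the G2 and M phase list 87.5% to the left, beside 9.24% and 8.35% over all genes tested.

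Fibroblast genes moved in both directions. Of 25 tested, 5 were higher (20.0%) and 9 lower (36.0%), beside 9.24 and 8.35% of all genes. Their summed library level had a median of 31794 CPM in members and 30231 CPM in matched cells, higher in 19 of 35 libraries. Col5a1, a collagen V chain, ran from 218 through 865 to 1468 CPM in members, against 357, 483 and 745 CPM in matched cells (0.88 ± 0.10, adjusted p = 3.42e-10). Sparc (0.37 ± 0.07), Col1a1 (0.39 ± 0.10), Lum (0.99 ± 0.24) and Pi16 (1.80 ± 0.60) were also higher, the last on 23 counts in members. Postn, the matrix protein periostin, ran from 18.2 through 285 to 1762 CPM in members, against 261, 774 and 1856 CPM in matched cells (-1.33 ± 0.20, adjusted p = 1.30e-06). Prrx1, a homeobox factor of limb mesenchyme, had medians of 228 CPM in members and 473 CPM in matched cells and was lower in 32 of 35 libraries (-0.97 ± 0.12). Twist1, Pdgfra, Pdgfrb, Col1a2, Fbln2, S100a4 and Vim were the others that fell. With scaling factors from the sums as they are, 4 were higher and 12 lower. Without cells with Hand2, Postn no longer passed (-0.51, adjusted p = 0.131).

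Markers of other cell types were checked because the culture holds some such cells. Of 25 skeletal muscle genes 4 were higher (Casq2, Cdh15, Des and Tnnt3) and 0 lower, of 18 cardiomyocyte genes 3 (Hspb7, Tnnt2 and Tcap) and 0, and of 16 mesothelial and epicardial genes 4 (Wt1, Sox6, Msln and Lrrn4) and 0. These are 16, 16.7 and 25% of the genes tested. Of all genes 9.24% were higher and 8.35% lower. With scaling factors from the sums as they are the mesothelial count was 3 higher and 1 lower. Hspb7, a heat shock protein of heart and muscle, had medians of 79.7 CPM in members and 24.4 CPM in matched cells (1.80 ± 0.17, adjusted p = 3.45e-12, higher in 32 of 35 libraries). Tnnt2, cardiac troponin T, had medians of 1022 CPM in members and 306 CPM in matched cells (1.58 ± 0.35, higher in 24 of 35 libraries). The myosin and myogenin genes Myh3 and Myog did not pass, with Myog at 142 counts in members and 454 in matched cells. In cartilage, 5 of 12 genes were higher (Comp, Sox5, Col9a1, Col9a2 and Col11a1) and Matn3 was lower. For bone, 2 of 5 were lower (Spp1 and Runx2). Of 15 smooth muscle genes Des was higher (6.67%) while Cnn1 and Tpm2 were lower (13.3%), near the shares of all genes. With the other scaling 5 of them were lower. Of 7 endothelial genes, Pecam1 and Flt1 (0.65 ± 0.20) were higher and Emcn was lower (-1.65 ± 0.48), with a median of -0.07 over the list. Pecam1 had 29 counts in members, of which 48.3% lay in 1 cell, and 1 in matched cells. Of 9 tested glial genes Fabp7 alone was called, as lower (11.1%), with 1 count in members and 152 in matched cells. Of 8 tested neuronal genes Gap43 (-1.60 ± 0.27) and Stmn2 (-1.27 ± 0.40) were lower (25.0%) and 0 higher. With Hand2 cells left out and members chosen anew, 22 of 24 skeletal muscle genes and 9 of 17 cardiomyocyte genes were higher and 0 of either lower, beside 5.45 and 4.62% of all genes in that comparison, so these counts depended on which cells were compared. The part of these other cells in the gene lists above was not tested, beyond the counts given without them.

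Cells that carried at least 2 different markers and 3 counts of another type were counted per library, and 6 such values were compared between members and matched cells by two-sided permutation tests over 35 libraries with Benjamini-Hochberg adjustment. The share of cells with skeletal muscle markers was 15.7 ± 17.1% in members and 11.2 ± 7.83% in matched cells (mean ± SD, adjusted p = 0.200), a difference within the spread between libraries. Cells with mesothelial markers made up 7.09 ± 9.29% of members and 2.81 ± 4.28% of matched cells (adjusted p = 0.0235). Cells with glial markers made up 0 of 261 members and 9 of 783 matched cells (1.15%). With 3 cells taken as the limit, and not the exact binomial one, 0 of 261 allows a share of 1.15%, that of the matched cells. Per library the share of cells with glial markers was 0% in members and 0.928 ± 1.68% in matched cells (adjusted p = 0.00808), lower in members in 9 libraries. This difference passed the test but rests on 9 matched cells. Macrophage markers were found in 1.86 ± 4.42% of members and 0.848 ± 2.96% of matched cells (adjusted p = 0.309). Without cells of these 4 types, 15 imprinted genes were higher and 0 lower, beside 8.85 and 8.24% of all genes. Thinned to 1500 counts, members held 1043 ± 27.2 genes per cell and matched cells 1062 ± 15.8 (adjusted p = 0.00114), with fewer in members in 29 libraries; without thinning the medians were 3980 and 3910. Members held 11.8 ± 2.94 detected pool factors per cell and matched cells 10.9 ± 2.80 (adjusted p = 0.00114), higher in members in 25 libraries.

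Of the 43 pool factors with a row, 41 could be tested, and 8 were higher in members (19.5%) and 3 lower (7.32%), beside 9.24 and 8.35% of all genes. A count cannot tell a delivered transcript from that of the cell's own gene. Hand1, the close relative of Hand2, was detected in 9.58% of members and 0.639% of matched cells (log2 fold change 3.10 ± 0.50, adjusted p = 6.67e-06), on 36 counts in members and 7 in matched cells. After Hand2 and Hand1, the changes were smaller: Hey2 (1.19 ± 0.29), E330017L17Rik (1.17 ± 0.38), Jazf1 (1.16 ± 0.30), Mesp1 (1.03 ± 0.30), Gata6 (0.63 ± 0.20) and Smarcd3 (0.34 ± 0.11). The call of E330017L17Rik was not shared by most libraries. It was higher in members in 13 libraries and lower in 15, with medians of 0 CPM in members and 4.26 CPM in matched cells. Of its counts in members 21.9% came from 1 cell. Gata6, a zinc finger factor of heart and endoderm, was found in 40.2% of members and 24.6% of matched cells. Shox2, a homeobox factor of limb and sinus node (-1.26 ± 0.31), Nr2f2 (-0.63 ± 0.17) and the cell cycle inhibitor Cdkn1a (-0.36 ± 0.11) were lower. Nr2f2 was at -0.03 within JD, -1.33 within PZ47-PZ48 and -0.99 within PZ58, and the test of a difference between the series did not pass (adjusted p = 0.529). When cells with Hand2 were left out, 6 factors were higher, of which Hand1 (3.51, adjusted p = 7.30e-05) and Smarcd3 (0.43, adjusted p = 0.0353) also passed in the full comparison. The others were Myod1 (2.36, adjusted p = 2.50e-05), Mef2a (0.69, adjusted p = 0.000365), Mef2d (0.67, adjusted p = 0.00497) and Mef2c (1.12, adjusted p = 0.0233). They were not called in the full comparison. In that comparison Hey2 (0.70, adjusted p = 0.189), Mesp1 (0.74, adjusted p = 0.343), Gata6 (0.32, adjusted p = 0.445), E330017L17Rik (0.40, adjusted p = 0.649) and Jazf1 (-0.10, adjusted p = 0.927) did not pass, and 0 factors were lower.

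Members led by different genes of the rule were compared next. The minimum of 3 members per library was not applied to these kinds. The 10 Tac2-led members came from 9 libraries, so most of their library sums held 1 cell. Their tests and SE values therefore rest largely on single cells. Against their own matched cells, 311 genes were higher and 173 lower in the 56 Nnat-led members (2.25 and 1.25% of 13837 genes), 880 higher and 912 lower in the 194 Fxyd6-led members (6.36 and 6.59%), and 18 higher and 2 lower in the 10 Tac2-led members (0.13 and 0.0145%). Comp was higher in all 3 kinds, with log2 fold changes of 7.15 ± 1.53 when led by Tac2, 5.23 ± 0.76 by Nnat and 3.42 ± 0.44 by Fxyd6, and so was Hand2 at 5.22 ± 0.86, 3.69 ± 0.44 and 3.34 ± 0.26 in that order. Hand2 was detected in 70.0% of Tac2-led, 39.3% of Nnat-led and 49.0% of Fxyd6-led members, against 6.67, 9.52 and 9.45% of the matched cells of each. Imprinted genes were higher in 5 cases and lower in 0 in Nnat-led members, and higher in 15 and lower in 0 in Fxyd6-led ones, with no difference between the kinds that passed the test.

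Nnat-led and Fxyd6-led members differed in genes of cell division. Tested directly, the effect in Nnat-led members minus that in Fxyd6-led members differed for 53 genes upward (0.383%) and 20 downward (0.145%), and 13 of the 24 G2 and M phase genes were among the 53. Nusap1, a spindle protein, had a log2 fold change of 1.26 ± 0.38 in Nnat-led and -2.49 ± 0.33 in Fxyd6-led members, a difference of 3.75 ± 0.51 (adjusted p = 3.9e-08). Top2a stood at 0.18 ± 0.35 and -2.45 ± 0.30 in the same order (difference 2.63 ± 0.47), and Spc25, a kinetochore protein, at 0.36 ± 0.33 and -1.90 ± 0.25 (2.26 ± 0.43). Cycling cells made up 26.8% of Nnat-led members and 35.1% of their matched cells, 12.4% of Fxyd6-led members and 36.8% of theirs, and 0 of the 10 Tac2-led members. Of the 24 G2 and M phase genes, 24 were lower in Fxyd6-led members, and 1 was higher and 0 lower in Nnat-led ones. Tac2-led members differed from Nnat-led ones in 1 gene, the glycogen-binding protein gene Stbd1, and from Fxyd6-led ones in 1 gene, the telomere-associated Rif1 (0.00723% of genes each). Of the skeletal muscle list, 7 genes were higher and 0 lower in Fxyd6-led members and 0 higher and 3 lower in Nnat-led ones, and Ttn, Acta1, Myl1 and Mylpf passed the test of the difference. Some leading genes of a kind came from single cells: of the counts of Prl8a2, Kng1 and Star, which were among the highest in Nnat-led members beside Comp, 81.4, 71.2 and 64.2% came from 1 cell each, and of Ren1, high in Fxyd6-led members, 65.2%. Prl8a2 had 70 counts in all members and 0 in matched cells, at least 69.4-fold higher when 3 counts over the group are taken as the limit. Esm1, low in Fxyd6-led members, had 0 counts in all members and 108 in matched cells, at least 12.1-fold lower by the same limit. Cldn1, a tight junction protein that was high in Fxyd6-led members (3.43 ± 0.36), was spread more widely, over 45 members and 25 matched cells.

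**Figure D4:**
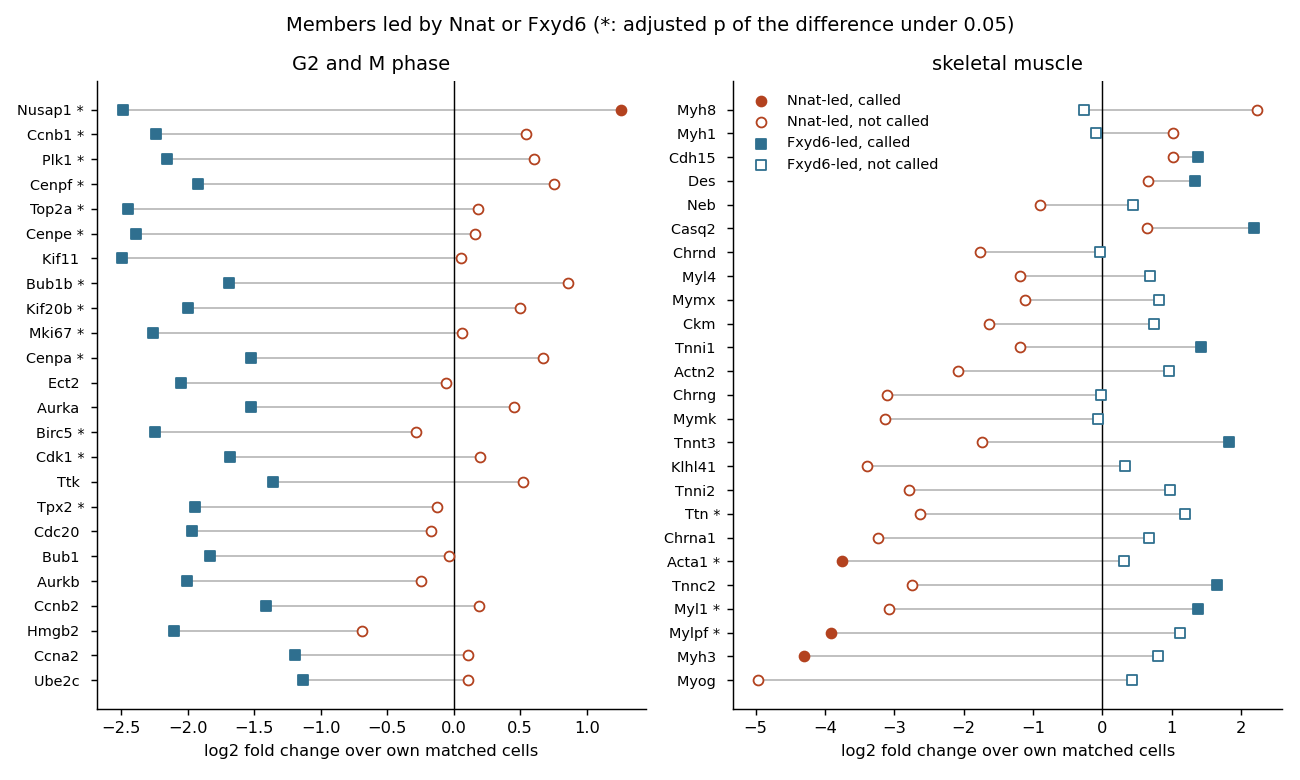
Log2 fold changes over their own matched cells of members led by Nnat (circles) and by Fxyd6 (squares), for the G2 and M phase list at left and the skeletal muscle list at right; filled marks passed an adjusted p of 0.05, and a star marks genes whose difference passed. The mitotic genes of Fxyd6-led members lie below 0 in 24 of 24 cases, and those of Nnat-led members lie around 0.

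The 58 members with a Tac2 count came from 28 libraries and were set against the 203 without, a split added after the data had been seen. The minimum of 3 members per library was not applied to this split either. Hand2 was detected in 67.2% of members with Tac2 and 42.4% of those without, at median totals of 12271.5 and 9712 counts, so depth differed as well. Over their own matched cells, 569 genes were higher (4.11%) and 438 lower (3.17%) in members with Tac2, and 756 higher (5.46%) and 899 lower (6.5%) in members without. Between the 2 sets, 20 genes differed upward (0.145%) and 48 downward (0.347%) in their change over matched cells. Contractile genes were among those that differed downward: of the smooth muscle list 11 were lower and 0 higher in members with Tac2, 1 lower and 2 higher in members without, and 7 passed the test of the difference, all downward. Tpm1, a tropomyosin, had a log2 fold change of -0.99 ± 0.17 in members with Tac2 and 0.37 ± 0.15 in members without (difference -1.36 ± 0.23, adjusted p = 0.00021). Csrp1, a LIM protein of muscle, stood at -1.07 ± 0.21 and 0.39 ± 0.14 in that order (-1.46 ± 0.25), and Cav1, the scaffold of caveolae, at -2.71 ± 0.32 and -0.62 ± 0.18 (-2.09 ± 0.37). Col13a1 was higher by 5.91 ± 0.62 in members with Tac2 and had 1.34 ± 0.50 in members without, and this difference passed as well (4.57 ± 0.91, adjusted p = 0.00197). Imprinted genes were higher in 12 cases in members with Tac2 and in 12 in members without, with 0 differences.

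When the cells of each library were ranked by the same sum, Hand2 and the imprinted genes followed the rank beyond the limit of 3%. Since rank was set by the 3 genes alone, the levels of other genes along it are a description. Mean Hand2 levels over 35 libraries were 184 ± 196 CPM in the top 1% of cells, 143 ± 131 in the next 2%, 89.4 ± 69.9 between 3 and 6%, 60.8 ± 50.6 between 6 and 12%, 20.3 ± 14.4 between 12 and 25%, and 8.54 ± 3.65 CPM in the rest (SD). The summed imprinted list stood at 22207 ± 8857, 22721 ± 8268, 18664 ± 8029, 15305 ± 4226, 12330 ± 2513 and 10298 ± 1365 CPM in the same order. Among members, Cdkn1c was lower in the top 1% (2282 ± 2128 CPM) than in the next 2% (3525 ± 2626). Mest likewise stood at 1122 ± 948 and 1353 ± 1009 CPM. In the rest of the cells Cdkn1c was at 256 and Mest at 194 CPM. Neighbouring bins differed by less than their spread among the top cells, while the ends of the scale were far apart. The G2 and M phase list moved the other way, with 972 ± 1881 CPM in the top 1% and 2108 ± 404 CPM in the lowest 75% of cells, a gap smaller than the SD of the top bin. The fibroblast list stayed between 28781 and 31178 CPM in all bins. The levels thus declined over several bins and not at the limit of 3% alone.

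**Figure D5:**
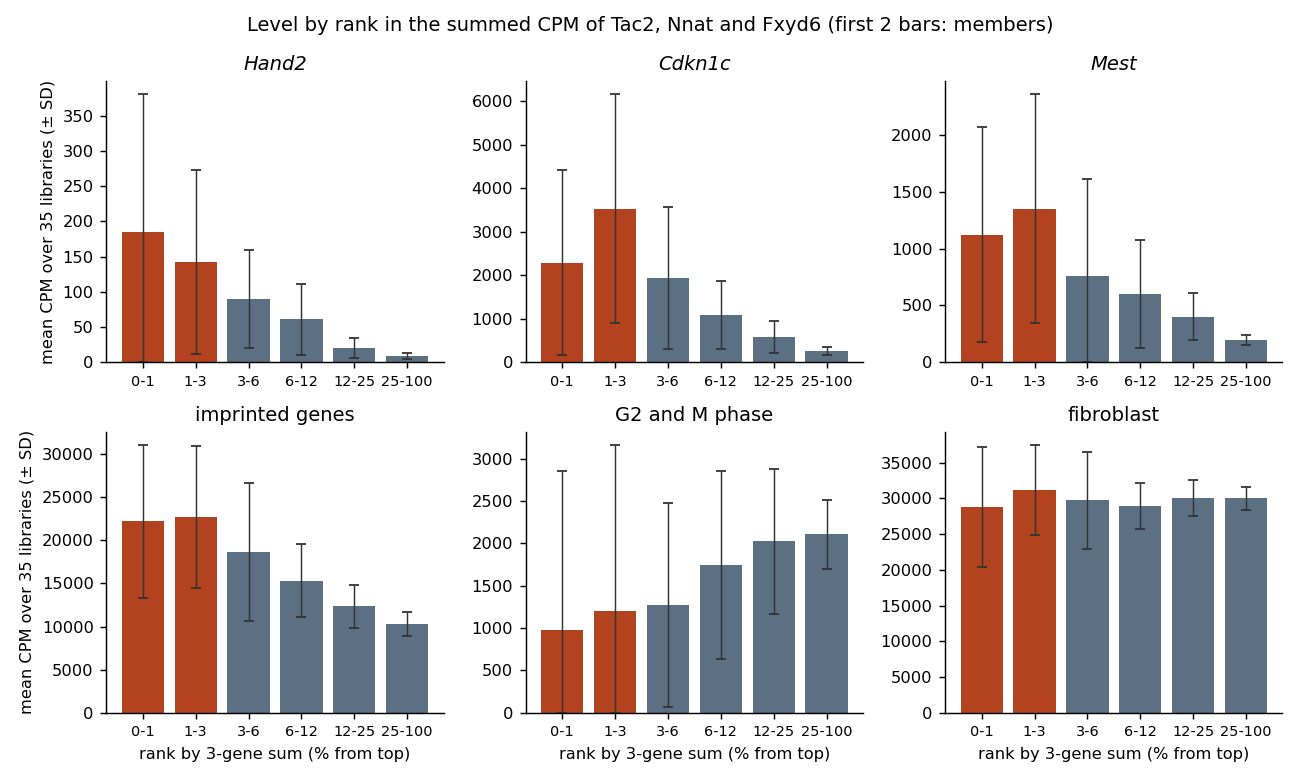
Mean CPM over 35 libraries with the SD (bars cut at 0) by rank in the summed CPM of the 3 genes, from the top 1% of cells at left to the lowest 75% at right, for Hand2, Cdkn1c, Mest, the imprinted, the G2 and M phase and the fibroblast lists. Hand2 declines in steps to 8.54 CPM, and the fibroblast list stays level.

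Few genes passed the test of a difference between the 3 library series. The change in members differed between the series for 2 of 13823 genes (0.0145%). The perinatal myosin gene Myh8 had log2 fold changes of -3.26 for JD, 3.01 for PZ47-PZ48 and -2.05 for PZ58 (adjusted p of the difference 0.00531), on 71 counts in members and 316 in matched cells. Ifit3, an interferon response gene, stood at -2.45, 1.24 and 0.95 (adjusted p = 0.0309). Within the series alone, 421 genes were higher and 413 lower for JD, 488 (4.04%) and 411 (3.41%) for PZ47-PZ48, and 110 (1.01%) and 90 (0.827%) for PZ58, which has the fewest libraries.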

How the data were processed

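The deposited values are raw counts of unique molecules per gene and cell, 1 table per Drop-seq library. Per the submitters' processing notes, bcl2fastq 2.17.1.14, STAR 2.5.3a, UMI-tools and featureCounts 1.5.3 were used with the build mm10; the annotation, the strand setting, the cell filter and the treatment of reads with several matches are not given in the sources used here. Of 8730 barcodes, 89 copies of barcodes found in more than 1 file were removed, keeping the copy with the most counts; technical replicates 4 and 6 shared 59 of them. No doublet caller was run, and an alternative left out the 5% deepest cells. The members and all gene lists were chosen with earlier results of these data known. CPM levels per library are a gene's counts over the summed counts of the cells.

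Counts of members and of matched cells were summed per library and compared with edgeR 4.0.16 (quasi-likelihood test, R 4.3.3), with the library as a block, at least 20 counts per gene and Benjamini-Hochberg adjustment at 0.05. Each SE is the size of the log2 fold change over the root of its F value. The planned TMM factors were found biased on simulated data, so factors came from sums thinned to equal totals, and plain TMM is given as an alternative. The library pairs members with matched cells because both come from the same library. Named genes are the 12 highest and 12 lowest called with 1 sign in all 3 library series, up to 3 per list, every called factor, and the leading genes of each kind and difference; other list members are named from their counts after their values were seen. DESeq2 1.42.0 was an alternative. Permutation tests used Python 3.11.15, numpy 2.4.6, scipy 1.17.1 and pandas 2.3.3 with 100000 sign flips. Intervals of shares are exact binomial (Clopper-Pearson) and cover counting error alone. Alternatives without cells with Hand2 or cycling cells were chosen after seeing the data. A few genes that the naming rule or the lists would name are not reported here, though the counts include them.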

Additional observations from a re-analysis of the deposited data

Results flagged for a closer look

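The results here are differences between effects that passed a test of the difference itself. Between the library series, Myh8 differed with an adjusted p of 0.00531 and Ifit3 with one of 0.0309 (edgeR). Between members by leading gene, the log2 effect of Stbd1 was larger by 4.10 in Tac2-led than in Nnat-led members, and that of Rif1 by 3.11 in Tac2-led than in Fxyd6-led members. Both rest on 10 Tac2-led cells of 9 libraries, so mostly on sums of 1 cell. Nusap1 (3.75), Top2a (2.63) and Spc25 (2.26) had a higher effect in Nnat-led than in Fxyd6-led members. Between members with and without a Tac2 count, the effects of Tpm1 (-1.36), Csrp1 (-1.46) and Cav1 (-2.09) were lower with Tac2.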

How the results depend on the processing

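The genes higher in members numbered 1277 and those lower 1154. With DESeq2 size factors the counts were 831 and 2299, with DESeq2's test 638 and 2225, with 1 matched cell 728 and 622, with 1% of each file 274 and 247, without cells with Hand2 716 and 607, and without cycling cells 684 and 619. Plain TMM gave 1998 lower genes. Within JD they were 421 and 413, within PZ47-PZ48 488 and 411, within PZ58 110 and 90, and within the 10 libraries with over 100 CPM of Rps27a 223 and 217. The median log2 fold change of all genes was -0.15 with DESeq2 size factors. The causes were not tested, apart from fewer libraries or cells in the subsets.

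Of the pool factors 8 were higher and 3 lower. The higher count was 4 with DESeq2's test, 5 with 1 matched cell, 3 with 1% of each file, 4 without cycling cells, 1 within JD, 3 within PZ47-PZ48, 1 within PZ58 and 1 in the high read class. The lower count was 6 with DESeq2 size factors, 6 with its test, 5 with plain TMM, 5 against all other cells, 0 with 1% of each file, 0 without cells with Hand2, 0 within JD, 1 within PZ47-PZ48, 0 within PZ58 and 0 in the high read class.

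By leading gene, DESeq2 size factors gave 281 lower genes in Tac2-led, 200 higher and 1797 lower in Nnat-led, and 538 higher and 2316 lower in Fxyd6-led members, and plain TMM gave 183, 1198 and 1770 lower genes in that order. Without the replicate block, 29 genes were higher in Tac2-led members. Nnat-led minus Fxyd6-led gave 33 and 60 with size factors, 33 and 51 with plain TMM, and 80 and 34 without the block. Tac2-led minus Fxyd6-led gave 0 and 2 with either scaling and 1 lower without the block, and Tac2-led minus Nnat-led 2 higher without it. With Tac2 the counts were 339 and 1826 with size factors and 370 and 1219 with plain TMM. Without Tac2 they were 487 and 2204 with size factors, and 1568 lower with plain TMM. The difference had 116 and 99 lower genes in that order. Without the block, 5 genes differed between the series.

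The difference in the share with skeletal muscle markers passed with 5% of each file (5.66 percentage points) and without the deepest cells (6.23). The mesothelial one did not with 1 matched cell (4.47) or 1% of each file (3.77). The glial difference, which rests on 9 matched cells, no longer passed in 4 settings. It was -0.571 with 1 matched cell, -0.794 with 1%, -0.521 with 5% and -0.467 without the deepest cells. Macrophage markers reversed without the deepest cells (-0.284). With 1% of each file, genes per cell (-9.66) and factors per cell (1.54) did not pass.

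Reversed log2 fold changes were Vip (0.46) and Msln (-0.022) with DESeq2's test, Tcap (-0.0084) and Msln (-0.29) with 1% of each file, Msln (-0.30) without other types, Des (-0.032) within PZ58, and Lyz2 against all other cells (-0.65), with 5% (-0.27) and without cells with Hand2 (-1.11). Without cells with Hand2, Emcn (0.41), mt-Nd2 (0.11), Jazf1 (-0.10) and Cdkn1a (0.10) reversed too, and without cycling cells Hells (0.10), Rrm2 (0.61), Mcm5 (0.23) and Cenpe (0.12). Leaving out 1 library at a time left named genes on their side of the threshold in 3495 cases and cost them the call in 39, of which Tcap had 7, Msln 4 and E330017L17Rik 4. Cells are sparse, so genes with few counts limit these tests.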
